A study of Mus musculus with 6 samples.

Results

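Genes of the major histocompatibility complex (MHC) and of antigen presentation were followed through 6 LLC1 tumour libraries. The members are the protein-coding rows whose gene name starts with H2-, the mouse MHC prefix, plus B2m, Tap1, Tap2, Tapbp, Erap1, Nlrc5, Psmb8, Psmb9, Psmb10, Psme1, Psme2, Cd74 and Ciita. They number 41 of the 19288 genes in the count table: 29 form a class I list, 11 form a class II list, and H2-Ke6, which encodes a steroid dehydrogenase and lies in the MHC without a role in antigen presentation, stands alone. In the GRCm38 annotation, 33 of the 41 lie on chromosome 17 between positions 33915899 and 37483552, a span of 3.57 Mb.

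Messenger RNA had been sequenced from 6 LLC1 tumours, 2 libraries per group, with 1 count table for all. LLC1 is a Lewis lung carcinoma line of C57BL/6 origin, and every host carried a beta-hCG transgene, bred by crossing C57BL/6 mothers with transgenic FVB fathers. Progesterone tumours came from ovariectomized hosts supplemented with progesterone, vehicle tumours from ovariectomized hosts given vehicle, both for 28 days, and transgenic tumours from hosts for which no ovariectomy or supplement is named. All tumours were taken 30 days after implantation. Ovariectomy and vehicle therefore cannot be told apart in the comparison of vehicle with transgenic tumours. Likewise, ovariectomy and progesterone cannot be told apart in the comparison of progesterone with transgenic tumours. No source used here names the promoter that drives the transgene. RNA of tumour cells and of host cells is mixed in each library, and fewer cells of a type and less RNA per cell cannot be told apart. The labels do not say that the libraries of a group came from separate animals, and a p-value then reflects only library-to-library spread, which may be technical.

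MHC class I molecules are made by nearly all nucleated cells. A heavy chain pairs with the light chain beta-2-microglobulin and carries peptides, cut by the proteasome and pumped into the endoplasmic reticulum by the TAP transporter, to CD8 T cells. Class II molecules are made mainly by macrophages, dendritic cells and B cells, are loaded in endosomes with the help of the invariant chain, and present to CD4 T cells. Nlrc5 and Ciita are the transactivators that switch on class I and class II genes, and interferon gamma raises both programmes. C57BL/6 cells carry MHC haplotype b and FVB mice haplotype q, so hosts of this cross can carry q alleles that the tumour cells lack, and the reference genome holds the C57BL/6 allele. How well reads of the q alleles aligned was not tested.

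Both transactivators act on a promoter module that includes an element related to the cyclic AMP site and an inverted CCAAT box, and the 6 promoters below are shown because the genes behind them carry the class I and class II values given later. Each is the 200 bases before the RefSeq transcript start (GRCm38.p6), written 5′ to 3′ in the direction of the gene. Capitals mark matches, on either strand, to GAAANNGAA, TGACG (cyclic AMP site) and ATTGG (inverted CCAAT box, which reads CCAAT on the other strand). GAAANNGAA is a form of the core of the interferon-stimulated response element. The last bases of TGACG on opposite strands overlap where the site is a palindrome, as in H2-Aa. The Tap1 window is shared with the oppositely transcribed Psmb9: 275 bases are common to both promoter windows.
H2-K1 promoter, chr17:34000348-34000547, minus strand: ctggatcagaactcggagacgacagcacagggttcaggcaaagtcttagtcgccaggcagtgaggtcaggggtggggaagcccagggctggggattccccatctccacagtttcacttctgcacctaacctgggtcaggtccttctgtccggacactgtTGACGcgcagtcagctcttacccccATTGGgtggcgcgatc
H2-D1 promoter, chr17:35262894-35263093, plus strand: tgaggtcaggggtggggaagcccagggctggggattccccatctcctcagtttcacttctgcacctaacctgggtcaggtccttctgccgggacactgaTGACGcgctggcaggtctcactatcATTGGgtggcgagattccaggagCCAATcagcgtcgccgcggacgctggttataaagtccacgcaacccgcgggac
B2m promoter, chr2:122147487-122147686, plus strand: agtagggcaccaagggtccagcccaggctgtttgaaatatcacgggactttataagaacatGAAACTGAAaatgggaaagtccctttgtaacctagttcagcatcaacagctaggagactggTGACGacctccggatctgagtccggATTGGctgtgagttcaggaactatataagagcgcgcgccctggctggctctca
Tap1 promoter, chr17:34187356-34187555, plus strand: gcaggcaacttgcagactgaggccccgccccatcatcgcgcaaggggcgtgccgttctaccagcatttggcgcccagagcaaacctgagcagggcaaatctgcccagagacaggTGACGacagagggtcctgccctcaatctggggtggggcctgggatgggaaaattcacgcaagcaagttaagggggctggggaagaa
H2-Aa promoter, chr17:34287824-34288023, minus strand: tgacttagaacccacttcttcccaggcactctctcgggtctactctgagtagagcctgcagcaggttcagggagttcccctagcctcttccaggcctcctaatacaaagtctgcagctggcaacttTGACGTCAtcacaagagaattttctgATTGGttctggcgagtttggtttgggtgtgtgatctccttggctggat
H2-Eb1 promoter, chr17:34305667-34305866, plus strand: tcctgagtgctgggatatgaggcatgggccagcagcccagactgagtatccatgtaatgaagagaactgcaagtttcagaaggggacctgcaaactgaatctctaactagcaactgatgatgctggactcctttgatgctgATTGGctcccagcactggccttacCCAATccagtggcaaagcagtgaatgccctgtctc

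The RefSeq promoter table holds windows for 34 of the 41 members, of which 28 passed the expression filter described below. Over windows of 300 bases (250 before and 50 after the start), ATTGG was found in 6 of 6 class II and 14 of 21 class I genes past the filter, against 37.4% of all 32851 windows. TGACG was found in 1 of 6 class II and 11 of 21 class I genes, against 20.8% of all windows. GAAANNGAA was found in 0 of 6 class II and 5 of 21 class I genes (8.56% of all windows), and the STAT site TTCNNNGAA in 1 of 6 and 2 of 21 (8.30% of all windows). TGACG followed on the same strand within 20 to 30 bases by ATTGG, a spacing chosen after the matches were seen, occurred in 0.435% of all windows. It occurred in B2m, H2-K1, H2-D1 and H2-M3 at a distance of 25 bases, in H2-Q7 at 24 bases and in H2-Aa at 26 bases. These matches are descriptions of letters, not of bound sites.

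Total counts ran from 19526775 to 30083925 per library, so that 3 counts, the limit a count of 0 allows, corresponded to 0.103 to 0.159 CPM (counts scaled to a common library size by TMM, as all CPM values here), for counting error only. The Spearman correlation of the 2 libraries of a group was 0.974 in progesterone, 0.986 in vehicle and 0.969 in transgenic tumours. In every group the 2 libraries differed far beyond sampling noise (chi-square per degree of freedom 62.6, 38.1 and 94.2), so neither was a second deposit of the other, though 2 preparations of 1 tumour would differ too. Of the genes listed for lung epithelium and carcinoma, Vim, the mesenchymal filament gene, ran from 3667 to 4532 CPM over the 6 libraries. Whether Vim measures tumour cells in these mixed libraries was not tested. Krt8, a simple-epithelium keratin, ran from 135 to 393 CPM and Krt18, another keratin, from 125 to 370 CPM. Both keratins were lowest in transgenic library 1 and highest in transgenic library 2. Epcam stayed at or under 0.222 CPM and Sftpc, a surfactant gene, held at most 1 count per library.

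After the filter on low counts, 35 of the 41 members were tested: 25 of 29 class I genes, 9 of 11 class II genes and H2-Ke6. The 6 that did not pass were H2-T3, H2-Q2, H2-M11 and H2-M10.1, which are non-classical class I genes, and H2-Oa and H2-Eb2 of class II, with 1, 3, 39, 1, 18 and 13 counts in all 6 libraries together. By edgeR's quasi-likelihood test at a Benjamini-Hochberg adjusted p under 0.05, 0 of the 35 members were called in any of the 3 comparisons, and 0 of the 13632 genes tested (0%) were called in each comparison. DESeq2 and limma-voom also called 0 members. The smallest adjusted p among members was 0.819 for vehicle against transgenic tumours, 0.939 for progesterone against vehicle and 0.914 for progesterone against transgenic. The directions below are therefore values, not called changes.

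**Figure D1:**
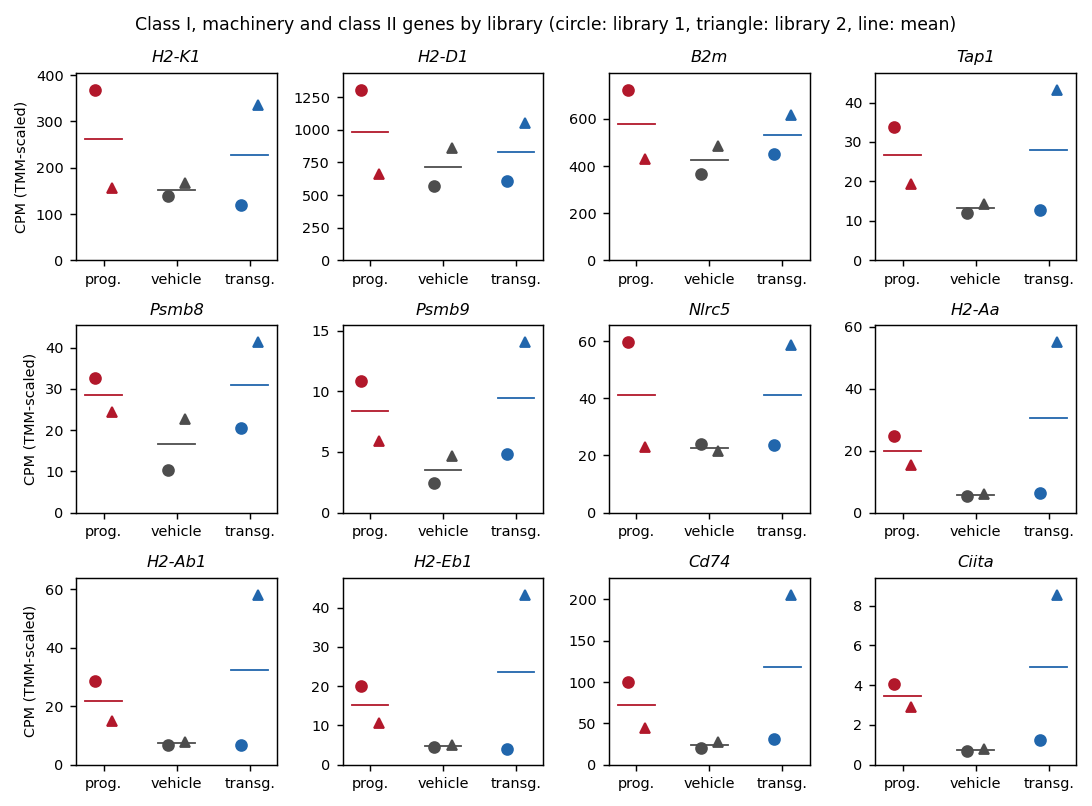
TMM-scaled CPM (linear axes from 0) of 12 antigen presentation genes in progesterone, vehicle and transgenic tumours; circles are library 1, triangles library 2 and lines the mean of the 2 libraries. In the class II panels transgenic library 2 is highest, for Cd74 at 206 CPM, and both progesterone libraries lie above both vehicle libraries.

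The classical heavy chains and the light chain were the most abundant members. Per kilobase of exon, averaged over 6 libraries, B2m stood first at 595 CPM per kb, H2-D1 followed at 327 and then H2-K1 at 73.0. The ranges of B2m (425 to 839 CPM per kb) and H2-D1 (222 to 505) overlapped across libraries, but per kilobase B2m was the higher in each library, by 1.66 to 2.21 times. This order rests on the length of all annotated exons, 860 bases for B2m and 2579 for H2-D1. In CPM not divided by length, H2-D1 was the higher in each library. H2-K1 at its highest, 125 CPM per kb, lay under H2-D1 at its lowest and overlapped with Tapbp, next in order at 48.3.

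H2-K1 (chr17:33996017-34000347), a classical heavy chain whose promoter is given above, had 368 and 157 CPM in progesterone tumours, 139 and 167 CPM in vehicle tumours and 120.1 and 336 CPM in transgenic tumours. Progesterone library 1 and transgenic library 2 were high, the other 4 libraries lay close together, and all 3 groups overlapped. Its log2 fold change was -0.58 ± 0.53 (SE, edgeR adjusted p = 0.945) for vehicle against transgenic tumours, 0.78 ± 0.53 (SE, edgeR adjusted p = 0.999) for progesterone against vehicle and 0.20 ± 0.53 (SE, edgeR adjusted p = 0.995) for progesterone against transgenic. H2-D1 (chr17:35262730-35267499), the other classical heavy chain, had 1303 and 660.4 CPM in progesterone tumours, 572 and 864 CPM in vehicle tumours and 612 and 1051 CPM in transgenic tumours. Progesterone library 1 was again the highest and transgenic library 2 the second, and the groups overlapped. The log2 fold change of H2-D1 was -0.21 ± 0.40 (SE, edgeR adjusted p = 0.982) for vehicle against transgenic, 0.45 ± 0.40 (SE, edgeR adjusted p = 0.999) for progesterone against vehicle and 0.24 ± 0.40 (SE, edgeR adjusted p = 0.995) for progesterone against transgenic. B2m (chr2:122147686-122153083) had 721 and 431 CPM in progesterone tumours, 366 and 486 CPM in vehicle tumours and 451 and 615 CPM in transgenic tumours, with the same 2 libraries on top and overlapping groups. The log2 fold change by edgeR was -0.32 ± 0.29 (SE, edgeR adjusted p = 0.945) for vehicle against transgenic, 0.44 ± 0.29 (SE, edgeR adjusted p = 0.999) for progesterone against vehicle and 0.11 ± 0.29 (SE, edgeR adjusted p = 0.995) for progesterone against transgenic.

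Among the non-classical heavy chains, H2-Q6 and H2-Q7, neighbouring Qa-2 genes, varied widely. H2-Q6 (chr17:35424850-35430055) had 13.1 and 5.59 CPM in progesterone tumours, 1.41 and 1.43 CPM in vehicle tumours and 1.70 and 18.7 CPM in transgenic tumours. Both progesterone libraries lay above both vehicle libraries, both vehicle libraries lay below both transgenic libraries, and transgenic library 1 lay close to the vehicle tumours. The log2 fold change stood at -2.84 ± 1.02 (SE, edgeR unadjusted p = 0.0271, adjusted p = 0.827) for vehicle against transgenic and 2.71 ± 1.02 (SE, edgeR unadjusted p = 0.0319, adjusted p = 0.939) for progesterone against vehicle. Without transgenic library 2 the value for vehicle against transgenic was -0.26. For progesterone against transgenic it was -0.13 ± 0.93 (SE, edgeR adjusted p = 0.996), and 2.45 without transgenic library 2. Relative to H2-D1 per kilobase, H2-Q6 stood at 0.0124 and 0.0105 in progesterone tumours, 0.00304 and 0.00205 in vehicle tumours and 0.00345 and 0.0220 in transgenic tumours, so the spread of H2-Q6 was not that of the classical chain. H2-Q7 (chr17:35439155-35443773) had 11.3 and 5.38 CPM in progesterone tumours, 1.48 and 2.01 CPM in vehicle tumours and 1.37 and 14.96 CPM in transgenic tumours, again with both progesterone libraries above both vehicle libraries, while vehicle and transgenic tumours overlapped.

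The values of these 2 genes are uncertain because their sequences are close. Over 978 aligned coding bases H2-Q6 and H2-Q7 were 95.4% identical, the closest of the 91 pairs of class I heavy chains past the filter, and 30.6% of all 50-base stretches of the H2-Q6 coding sequence occur unchanged in H2-Q7. H2-D1 and H2-K1 were 91.5% identical and shared 10.3% of the 50-base stretches of H2-D1. How the authors' counting treated reads that fit several genes could not be read from the labels or notes. The stretch below, near the start of the first extracellular domain, gives 4 of the genes side by side. It was picked as the window of 90 bases, aligned without gaps, in which H2-Q6 and H2-Q7 differ most, so it is not typical of that pair. Over their aligned coding bases H2-D1 and H2-Q6 were 89.6% identical, less than H2-Q6 and H2-Q7. Capitals mark bases that differ from H2-Q6: 13 in H2-Q7, 14 in H2-K1 and 13 in H2-D1, of 90. The sequences are those of the GENCODE transcripts of GRCm38, counted from the first coding base.
H2-Q6 coding bases 67-156: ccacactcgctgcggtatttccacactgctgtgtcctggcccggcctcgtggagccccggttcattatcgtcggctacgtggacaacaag
H2-Q7 coding bases 67-156: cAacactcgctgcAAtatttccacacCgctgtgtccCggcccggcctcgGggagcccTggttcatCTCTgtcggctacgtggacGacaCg
H2-K1 coding bases 67-156: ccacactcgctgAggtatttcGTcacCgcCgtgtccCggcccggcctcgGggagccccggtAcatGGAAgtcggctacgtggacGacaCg
H2-D1 coding bases 76-165: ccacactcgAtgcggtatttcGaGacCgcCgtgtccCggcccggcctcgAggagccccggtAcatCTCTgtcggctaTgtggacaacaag

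The other non-classical genes were steadier or scarce. H2-Q4 had 68.6 and 30.5 CPM in progesterone tumours, 16.3 and 30.3 CPM in vehicle tumours and 27.04 and 54.2 CPM in transgenic tumours, and both progesterone libraries lay above both vehicle libraries by a small margin. H2-T22 had 63.1 and 41.7 CPM in progesterone tumours, 42.98 and 52.2 CPM in vehicle tumours and 39.5 and 62.8 CPM in transgenic tumours. H2-T23, which encodes Qa-1, the ligand of NKG2 receptors on NK cells, had 40.9 and 29.4 CPM in progesterone tumours, 30.02 and 49.1 CPM in vehicle tumours and 26.1 and 55.2 CPM in transgenic tumours, and all groups of both genes overlapped. H2-M3, which presents formylated bacterial peptides, had 13.4 and 12.5 CPM in progesterone tumours, 11.3 and 11.6 CPM in vehicle tumours and 9.85 and 20.9 CPM in transgenic tumours. H2-M2 rested on 11 and 3 counts in progesterone, 1 and 1 in vehicle and 4 and 17 in transgenic tumours, and its log2 fold change of -3.20 ± 1.29 (SE, edgeR unadjusted p = 0.0416, adjusted p = 0.862) for vehicle against transgenic depends on the prior count. H2-M9 went against the common order: progesterone library 2 was its highest, at 1.99 CPM, and progesterone library 1 its lowest, at 0.155 CPM. H2-Q1, H2-Q10, H2-M5 and H2-T24 stayed at or under 1.41 CPM in every library.

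Peptide transport and loading genes fell into a variable gene and 3 steady ones. Tap1 (chr17:34187553-34197225), a TAP transporter subunit, had 33.8 and 19.3 CPM in progesterone tumours, 11.9 and 14.4 CPM in vehicle tumours and 12.9 and 43.1 CPM in transgenic tumours. Transgenic library 2 was highest, progesterone library 1 second, and transgenic library 1 lay within the range of the vehicle libraries; both progesterone libraries lay above both vehicle libraries. The fitted log2 fold change was -1.09 ± 0.55 (SE, edgeR adjusted p = 0.883) for vehicle against transgenic, 1.02 ± 0.55 (SE, edgeR adjusted p = 0.959) for progesterone against vehicle and -0.07 ± 0.54 (SE, edgeR adjusted p = 0.996) for progesterone against transgenic. Tap2, the partner subunit, had 67.5 and 56.1 CPM in progesterone tumours, 51.2 and 73.1 CPM in vehicle tumours and 49.9 and 82.5 CPM in transgenic tumours. The highest library exceeded the lowest by 3.61 times for Tap1, 1.65 times for Tap2, 1.63 times for Erap1, the peptide-trimming aminopeptidase, and 1.38 times for Tapbp (tapasin). Exons of Tap1 and Psmb9 overlap by 212 bases on opposite strands and those of Erap1 and Cast by 834, and with no counting strand stated such reads cannot be assigned.

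The 3 catalytic subunits of the immunoproteasome replace constitutive subunits and favour peptides that fit class I. Psmb8 (chr17:34197721-34201454) had 32.8 and 24.4 CPM in progesterone tumours, 10.4 and 22.6 CPM in vehicle tumours and 20.4 and 41.3 CPM in transgenic tumours, and both progesterone libraries lay above both vehicle libraries. Its log2 fold change was -0.91 ± 0.46 (SE, edgeR adjusted p = 0.883) for vehicle against transgenic, 0.79 ± 0.46 (SE, edgeR adjusted p = 0.98) for progesterone against vehicle and -0.11 ± 0.45 (SE, edgeR adjusted p = 0.996) for progesterone against transgenic. Psmb9 (chr17:34181987-34187764) had 10.9 and 5.88 CPM in progesterone tumours, 2.40 and 4.66 CPM in vehicle tumours and 4.85 and 14.03 CPM in transgenic tumours, and the vehicle libraries lay below all other 4. For Psmb9 the log2 fold change was -1.42 ± 0.62 (SE, edgeR adjusted p = 0.871) for vehicle against transgenic, 1.25 ± 0.62 (SE, edgeR adjusted p = 0.944) for progesterone against vehicle and -0.17 ± 0.60 (SE, edgeR adjusted p = 0.995) for progesterone against transgenic. Psmb10 had 37.01 and 25.1 CPM in progesterone tumours, 21.7 and 28.8 CPM in vehicle tumours and 27.1 and 48.7 CPM in transgenic tumours, with overlapping groups. Set against the subunit it replaces, per kilobase, Psmb9 stood at 0.0416 and 0.0314 of Psmb6 in progesterone tumours, 0.0125 and 0.0203 in vehicle tumours and 0.0205 and 0.0564 in transgenic tumours. Psmb8 stood at 0.0904 and 0.0855 of Psmb5 in progesterone, 0.0377 and 0.0719 in vehicle and 0.0615 and 0.104 in transgenic tumours. Psmb10 stood higher against Psmb7, at 0.435 and 0.364 in progesterone, 0.330 and 0.370 in vehicle and 0.360 and 0.521 in transgenic tumours, and all groups overlapped. All 3 immune subunits lay below their constitutive counterparts in every library. The size of these ratios rests on the length of all annotated exons. These were 3381 bases for Psmb8 against 899 for Psmb5, 3660 for Psmb9 against 1872 for Psmb6 and 1705 for Psmb10 against 3421 for Psmb7. In CPM not divided by length the gap was smaller for Psmb8 and Psmb9, with Psmb8 at 32.8 and Psmb5 at 96.4 in progesterone library 1. For Psmb10 the gap was larger, with 37.01 CPM against 171 for Psmb7 in that library. The activator genes Psme1 and Psme2 varied little, with a highest to lowest ratio of 1.33 and 1.85.

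Nlrc5 (chr8:94434356-94527272), the class I transactivator, had 59.6 and 23.1 CPM in progesterone tumours, 23.9 and 21.6 CPM in vehicle tumours and 23.6 and 58.8 CPM in transgenic tumours. Only progesterone library 1 and transgenic library 2 were high, the other 4 libraries ran from 21.6 to 23.9 CPM, and H2-K1 had its 2 highest values in the same libraries. The log2 fold change of Nlrc5 was -0.85 ± 0.53 (SE, edgeR adjusted p = 0.911) for vehicle against transgenic, 0.86 ± 0.53 (SE, edgeR adjusted p = 0.998) for progesterone against vehicle and 0.01 ± 0.52 (SE, edgeR adjusted p = 1) for progesterone against transgenic.

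Per kilobase, class II chains were lower than the classical class I chains and more uneven between libraries. H2-Aa (chr17:34282744-34287823), the alpha chain of I-A, had 24.6 and 15.3 CPM in progesterone tumours, 5.42 and 5.99 CPM in vehicle tumours and 6.26 and 55.00 CPM in transgenic tumours. Transgenic library 2 was far above the rest, transgenic library 1 was close to the vehicle libraries, and both progesterone libraries lay above both vehicle libraries. The log2 fold change by edgeR was -2.42 ± 0.87 (SE, edgeR unadjusted p = 0.0261, adjusted p = 0.827) for vehicle against transgenic, 1.81 ± 0.85 (SE, edgeR adjusted p = 0.944) for progesterone against vehicle and -0.62 ± 0.82 (SE, edgeR adjusted p = 0.994) for progesterone against transgenic. H2-Ab1 (chr17:34257689-34269419), the beta chain of I-A, had 28.7 and 14.98 CPM in progesterone tumours, 6.69 and 7.90 CPM in vehicle tumours and 6.63 and 58.1 CPM in transgenic tumours. For H2-Ab1 the values were -2.15 ± 0.87 (SE, edgeR unadjusted p = 0.0426, adjusted p = 0.862) for vehicle against transgenic, 1.58 ± 0.86 (SE, edgeR adjusted p = 0.961) for progesterone against vehicle and -0.57 ± 0.83 (SE, edgeR adjusted p = 0.995) for progesterone against transgenic. H2-Eb1 (chr17:34305867-34316674), the beta chain of I-E, which in haplotype b lacks an alpha partner, had 20.01 and 10.6 CPM in progesterone tumours, 4.56 and 5.09 CPM in vehicle tumours and 3.89 and 43.3 CPM in transgenic tumours. Its log2 fold changes were -2.29 ± 0.95 (SE, edgeR unadjusted p = 0.0462, adjusted p = 0.871), 1.67 ± 0.93 (SE, edgeR adjusted p = 0.972) and -0.62 ± 0.90 (SE, edgeR adjusted p = 0.995) in the same 3 comparisons. In both beta chains transgenic library 1 lay below both vehicle libraries. Without transgenic library 2, vehicle against transgenic gave -0.13 for H2-Aa, 0.14 for H2-Ab1 and 0.31 for H2-Eb1.

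Cd74, the invariant chain that guides class II chains to endosomes, had 101 and 44.3 CPM in progesterone tumours, 20.7 and 27.7 CPM in vehicle tumours and 30.6 and 206 CPM in transgenic tumours. The order of libraries was that of H2-Aa, and per kilobase Cd74 stood at 6.57 to 11.1 times H2-Aa in all 6 libraries. The log2 fold change stood at -2.29 ± 0.81 (SE, edgeR unadjusted p = 0.0252, adjusted p = 0.827) for vehicle against transgenic, 1.58 ± 0.79 (SE, edgeR adjusted p = 0.944) for progesterone against vehicle and -0.70 ± 0.77 (SE, edgeR adjusted p = 0.981) for progesterone against transgenic. The peptide exchange genes were steadier: H2-DMa had 13.3 and 7.86 CPM in progesterone tumours, 12.5 and 9.38 CPM in vehicle tumours and 9.59 and 18.8 CPM in transgenic tumours, and H2-DMb1 had 8.07 and 4.01 CPM in progesterone tumours, 3.12 and 5.30 CPM in vehicle tumours and 4.96 and 11.3 CPM in transgenic tumours. H2-DMb2 had 2.12 and 1.90 CPM in progesterone tumours, 0.961 and 0.689 CPM in vehicle tumours and 1.37 and 2.61 CPM in transgenic tumours, with both vehicle libraries below all other 4. H2-Ob, a subunit of the exchange inhibitor DO, stayed at or under 0.969 CPM. H2-DMa shares 360 exon bases with Brd2 on the other strand, where reads cannot be assigned without a stated counting strand.

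Ciita (chr16:10480059-10528418), the class II transactivator, had 4.06 and 2.90 CPM in progesterone tumours, 0.686 and 0.795 CPM in vehicle tumours and 1.26 and 8.56 CPM in transgenic tumours. Both vehicle libraries lay below the other 4, and transgenic library 1 was the lowest of those 4. The fitted log2 fold change was -2.72 ± 0.87 (SE, edgeR unadjusted p = 0.0166, adjusted p = 0.819) for vehicle against transgenic, and -0.76 without transgenic library 2. For progesterone against vehicle it was 2.23 ± 0.86 (SE, edgeR unadjusted p = 0.0359, adjusted p = 0.939), and between 1.96 and 2.45 with any 1 library left out. Progesterone against transgenic gave -0.49 ± 0.80 (SE, edgeR adjusted p = 0.995). Exons of Ciita and Dexi overlap by 329 bases on opposite strands. H2-Ke6, the MHC-region gene outside antigen presentation, had 20.2 and 18.8 CPM in progesterone tumours, 16.9 and 20.3 CPM in vehicle tumours and 17.7 and 21.1 CPM in transgenic tumours, and its highest library exceeded its lowest by 1.25 times; it shares 1419 exon bases with a same-strand transcript, Gm20427.

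**Figure D2:**
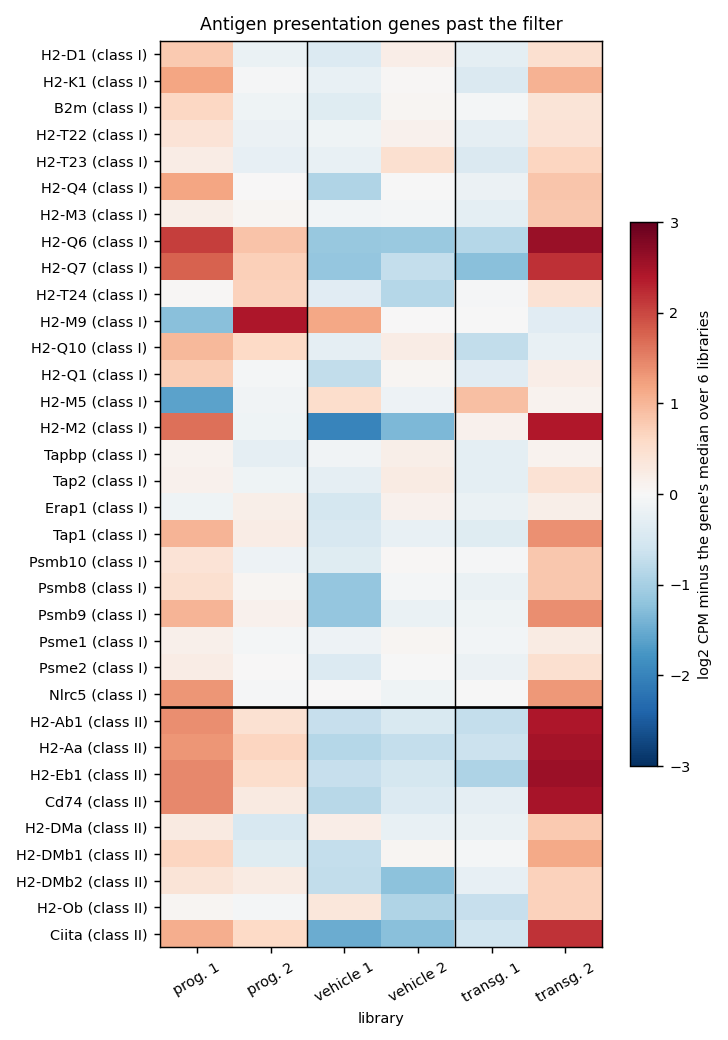
Log2 CPM of the 25 class I and 9 class II genes past the filter, each minus its own median over the 6 libraries, with class I above and class II below the horizontal line. Columns are progesterone, vehicle and transgenic libraries. Red columns stand out for transgenic library 2 and progesterone library 1, where 17 of the class I and 8 of the class II genes had their 2 highest values.

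Class II differed more than class I between the 2 libraries of the transgenic group. The ratio of transgenic library 2 to library 1 had a median of 6.71 over 9 class II genes and 1.72 over 25 class I genes, against 1.02 over all genes. In that pair 7 of 9 class II and 11 of 25 class I genes were over 2-fold higher in library 2, against 6.17% of all genes. Progesterone library 1 over library 2 had a median ratio of 1.69 for class II, with 2 of 9 genes over 2-fold, and 1.48 for class I, with 5 of 23, against 1.004 and 2.04% for all genes. Vehicle library 1 over library 2 had medians of 0.897 for class II and 0.755 for class I, with 1 of 9 and 1 of 24 genes over 2-fold higher, against 0.990 and 3.39% for all genes. Transgenic library 2 was the highest of the 6 for 9 of 9 class II genes and 12 of 25 class I genes, against 23.1% of all genes. Transgenic library 2 and progesterone library 1 were together the top 2 for 8 of 9 class II and 17 of 25 class I genes, against 10.8% of all genes.

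For vehicle against transgenic tumours, 0 of 9 class II genes had a higher value and 9 a lower one (median log2 fold change -2.15), and 3 of 25 class I genes had a higher value and 22 a lower one (median -0.38), beside a median of -0.01 over all genes. At an unadjusted p under 0.05, 7 of 35 members were on the lower side, 5 of class II and 2 of class I, against 5.57% of all genes in either direction. Both vehicle libraries lay below both transgenic libraries for 8 members, 4 of each list, against 17.7% of all genes, and above them for H2-M9 alone, against 17.9%. These values rested on transgenic library 2: without it the class II median was -0.13, the class I median 0.03, and 0 members had an unadjusted p under 0.05, against 3.59% of all genes in that fit. Without transgenic library 1 the class II median was -2.99 and 18 members had such a p, against 13.3% of all genes. The count was 0 without vehicle library 1 (2.01% of all genes), 2 without vehicle library 2 (3.49%) and 4 without progesterone library 1 (5.61%).

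For progesterone against vehicle tumours, 8 of 9 class II genes had a higher value (median log2 fold change 1.58) and 21 of 25 class I genes (median 0.70), beside a median of 0.01 over all genes. At an unadjusted p under 0.05, 2 of 35 members (Ciita and H2-Q6, both higher) stood against 5.29% of all genes. Both progesterone libraries lay above both vehicle libraries for 17 of 35 members, 6 of class II and 11 of class I, against 18.5% of all genes, and below them for 0 members, against 17.8%. Leaving out any 1 library kept the class II median between 1.04 and 1.98 and the class I median between 0.19 and 0.76, but the members with an unadjusted p under 0.05 ran from 0 to 10. There were 0 without progesterone library 1 (6.24% of all genes in that fit) or vehicle library 1 (1.92%), 10 without transgenic library 1 (7.70%), 9 without transgenic library 2 (7.48%) and 4 without progesterone library 2 (4.60%).

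For progesterone against transgenic tumours, 1 of 9 class II genes had a higher value (median log2 fold change -0.49) and 13 of 25 class I genes (median 0.01), beside 0.01 over all genes. No member had an unadjusted p under 0.05 by edgeR, DESeq2 or limma-voom (0 of 35), against 5.27% of all genes by edgeR. The groups did not overlap for H2-Q10, higher in progesterone tumours, against 14.5% of all genes, and for H2-M5, lower, against 14.5%. Without transgenic library 2 the class II median was 1.24, the class I median was 0.48, and 7 members had an unadjusted p under 0.05, against 5.87% of all genes in that fit. That count was 6 without transgenic library 1 (10.3% of all genes) and 1 without progesterone library 1 (4.84%). The class I median turned to -0.37 without transgenic library 1 and -0.33 without progesterone library 1. All 3 comparisons draw on the same 3 pairs of libraries and are not independent of each other.

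**Figure D3:**
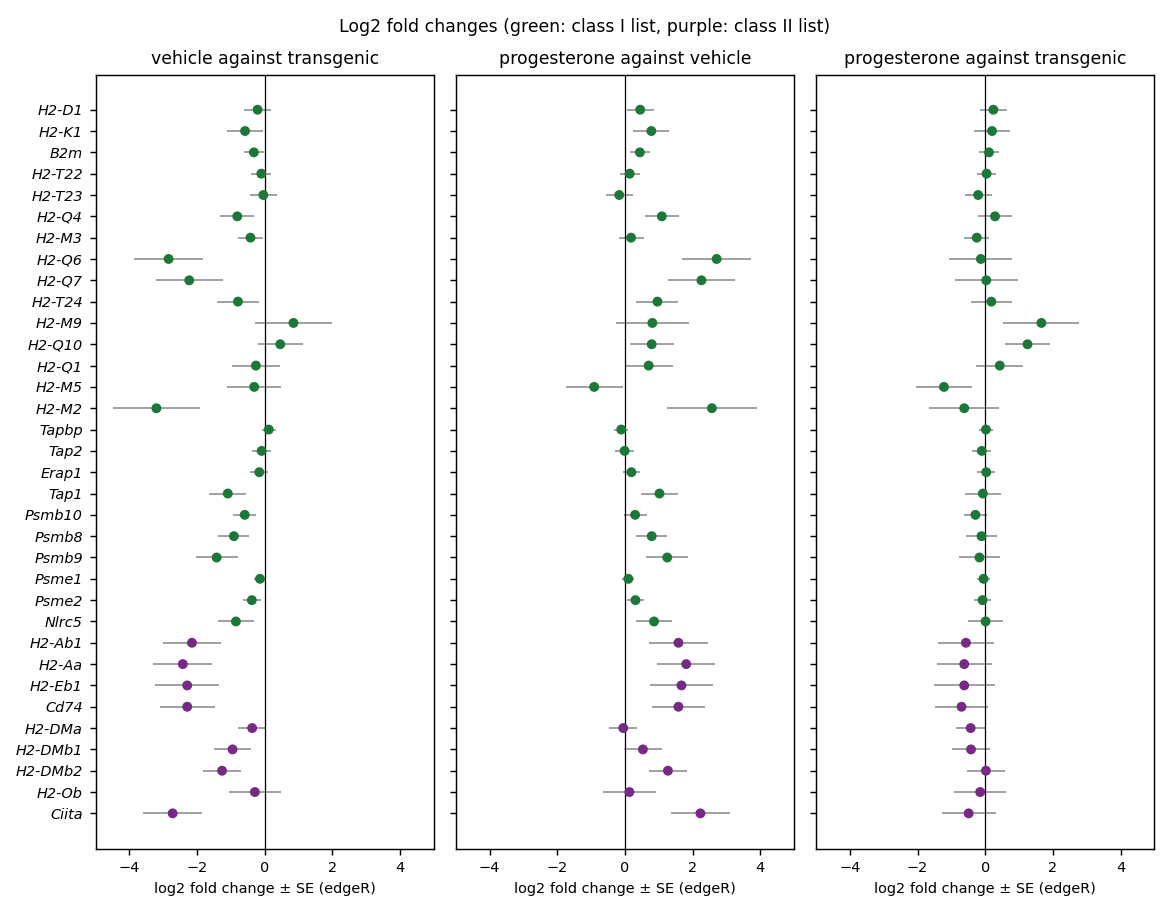
Log2 fold change with its standard error (edgeR) of the 25 class I (green) and 9 class II (purple) genes past the filter, for vehicle against transgenic, progesterone against vehicle and progesterone against transgenic tumours. In the first panel most purple points lie left of most green ones, with Ciita at -2.72; of the green points H2-M2 and H2-Q6 lie still farther left.

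**Figure D4:**
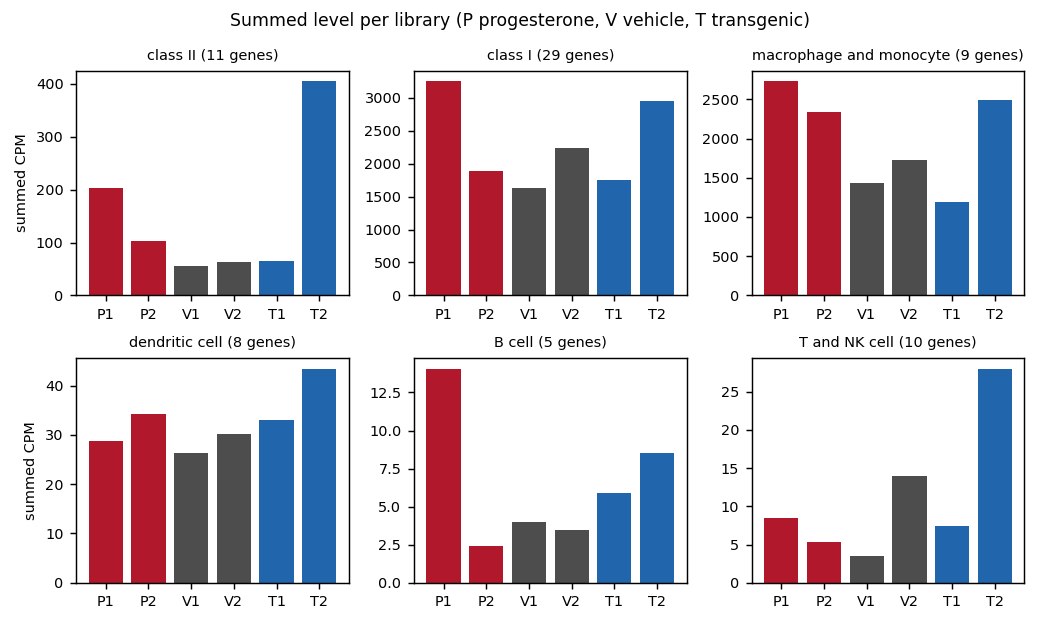
Summed CPM per library (bars from 0) of the class II and class I lists and of marker lists of macrophages and monocytes, dendritic cells, B cells, and T and NK cells, in progesterone (P), vehicle (V) and transgenic (T) tumours. Class II reaches 404 CPM in transgenic library 2, against 65.1 CPM in transgenic library 1.

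Summed over its 11 genes, class II stood at 202 and 103 CPM in progesterone tumours, 55.5 and 63.3 CPM in vehicle tumours and 65.1 and 404 CPM in transgenic tumours. Markers of cells that make class II were read beside it. Lyz2 made the larger part of each macrophage and monocyte sum, from 730 CPM in transgenic library 1 to 1706 CPM in progesterone library 1. The 9 macrophage and monocyte markers, none at 0 in any library, summed to 2729 and 2336 CPM in progesterone tumours. In vehicle tumours they summed to 1429 and 1730 CPM and in transgenic tumours to 1186 and 2488 CPM. All 9 had a higher value in progesterone than in vehicle tumours (median log2 fold change 0.68), 8 of them without overlap of the groups (18.5% of all genes), and in vehicle against transgenic tumours 2 had a higher and 7 a lower value (median -0.25). Ptprc, the leukocyte surface marker CD45, had 70.5 and 67.03 CPM in progesterone tumours, 52.6 and 60.6 CPM in vehicle tumours and 47.01 and 75.3 CPM in transgenic tumours. The part of macrophage content in the class II values was not tested. Per kilobase, Cd74 stood at 2.56 and 1.09 times the macrophage receptor gene Csf1r in progesterone tumours, 0.877 and 1.06 times in vehicle tumours and 1.77 and 6.89 times in transgenic tumours. H2-Aa stood at 1.68 and 1.10 times Ptprc in progesterone, 0.497 and 0.477 times in vehicle and 0.642 and 3.52 times in transgenic tumours. Cd74 thus differed more between libraries than Csf1r, and H2-Aa more than Ptprc. This did not hold for all genes of the lists. The ratio of highest to lowest library ran from 2.40 for H2-DMa to 12.5 for Ciita among the 9 class II genes past the filter. Among the 9 macrophage and monocyte markers it ran from 1.69 for Cd14 to 6.43 for Mrc1, so the 2 ranges overlapped.

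The 8 dendritic cell markers summed to 28.8 and 34.3 CPM in progesterone, 26.4 and 30.3 CPM in vehicle and 33.1 and 43.5 CPM in transgenic tumours; Siglech was at 0 in both vehicle libraries and Xcr1 in 1 of them. The 5 B cell markers summed to 14.1 and 2.40 CPM in progesterone, 4.01 and 3.45 CPM in vehicle and 5.93 and 8.51 CPM in transgenic tumours, mostly Pax5, while Ms4a1 was at 0 in both vehicle libraries and in transgenic library 2. The 10 T and NK cell markers summed to 8.46 and 5.38 CPM in progesterone, 3.57 and 13.9 CPM in vehicle and 7.37 and 28.0 CPM in transgenic tumours; Cd4 and Cd8a were at 0 in vehicle library 2. Single markers did not all follow the sums. Transgenic library 2 was the highest of the 6 for 8 of the 10 T and NK cell markers, but Cd4 and Ncr1 were highest in progesterone library 1. It was the highest for 4 of the 8 dendritic cell markers, of which Itgax, at 28.9 CPM there, made most of the sum. Flt3, the receptor of the dendritic cell growth factor, was lowest there, at 1.64 CPM against 5.52 CPM in transgenic library 1, and Siglech, Ccr7 and Clec9a were highest in a progesterone library. The part of these cells in the class II values was not tested.

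Of the pathway genes outside the member rule, 32 were tested and 0 were called in any comparison. Of these, 12 had a higher and 20 a lower value for vehicle against transgenic, 22 and 10 for progesterone against vehicle, and 13 and 19 for progesterone against transgenic. Interferon gamma itself (Ifng) held 1 and 1 counts in progesterone, 0 and 1 in vehicle and 1 and 2 in transgenic tumours, too few to compare. Irf1, an interferon-induced activator of class I genes, had 77.7 and 67.3 CPM in progesterone tumours, 53.7 and 75.6 CPM in vehicle tumours and 72.7 and 77.1 CPM in transgenic tumours, with overlapping groups in all 3 comparisons. The 5 tested class II processing and turnover genes differed among themselves. Ctss, the protease that trims the invariant chain, had 258 and 189.8 CPM in progesterone tumours, 150.1 and 171 CPM in vehicle tumours and 92.4 and 356 CPM in transgenic tumours, highest in transgenic library 2. Ctsl, a lysosomal protease that trims it in thymic epithelium, had 2560.4 and 1806 CPM in progesterone tumours, 3905 and 2902 CPM in vehicle tumours and 2294 and 1546 CPM in transgenic tumours, highest in the vehicle libraries and lowest in transgenic library 2. Its log2 fold change was 0.83 ± 0.28 (SE, edgeR unadjusted p = 0.0199, adjusted p = 0.827) for vehicle against transgenic, the 1 unadjusted p under 0.05 among the 32 genes in that comparison, and -0.64 ± 0.28 (SE, edgeR adjusted p = 0.944) for progesterone against vehicle. Lgmn and Ctsb, lysosomal proteases, were highest in progesterone library 1, and March1, a ubiquitin ligase that removes class II from the surface, in transgenic library 2. The 9 tested interferon gamma axis genes summed to 653 and 651 CPM in progesterone, 660 and 723 CPM in vehicle and 622 and 626 CPM in transgenic tumours, so their sum did not share the order of class II.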

How the data were processed

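Counts per gene, not normalized, were deposited by the authors in 1 table for all 6 libraries. Alignment and counting tools are known only by name, per the submitters' processing notes: HISAT2, HTSeq and DESeq, with the build GRCm38.p6. Versions, settings and the counting strand are not stated there. The labels' protocols describe TRIzol RNA and a directional mRNA library kit. The labels name no batch. All 6 count columns were used. Coordinates and exon lengths come from GENCODE M21 (GRCm38), in which 19284 of 19288 gene IDs were found, and promoter sequences from RefSeq (GRCm38.p6).

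In R 4.3.3, genes were kept with filterByExpr of edgeR 4.0.16 (13632 genes), and library sizes were scaled by TMM (factors 0.9665 to 1.054). The quasi-likelihood model gave each of the 3 groups its own mean, leaving 3 residual degrees of freedom, and adjusted p-values (Benjamini-Hochberg) cover all genes tested. The common biological coefficient of variation was 0.295. Standard errors were derived from the F statistic. CPM values are TMM-scaled. The code was run on simulated counts whose spread between libraries was set in advance, the same for all genes, and not taken from these data. That run does not measure the precision of the fit here. Alternatives were DESeq2 size factors, no filter, DESeq2 1.42.0, voom in limma 3.58.1, only the 2 groups compared, a replicate block, and each library left out.

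The members and lists were chosen with earlier results of these data known. Values in every library are given for H2-K1, H2-D1, B2m, Tap1, Psmb8, Psmb9, Nlrc5, H2-Aa, H2-Ab1, H2-Eb1, Cd74, Ciita and any other member with an unadjusted p under 0.05 (H2-Q6 and H2-M2); further members past the filter are named by role. The rows H2-Q5, H2-Ea-ps and H2-Bl carry another biotype and were left out. Similarity of heavy chains was computed on GENCODE coding sequences in place of proteins. Values of some listed genes outside the members are not reported here.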

Additional observations from a re-analysis of the deposited data

How the results depend on the processing

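With 2 libraries per group and 3 residual degrees of freedom, precision is low, and where 1 library of a group was left out the lone library was assumed to vary like the others. No setting called a member. Of the results that stand for a comparison, 75 values under other settings kept their direction and size class, 14 moved and 1 reversed; of single-gene values, 239 kept their direction and 11 reversed. The cause was not tested.

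Over all genes, no filter called 12 (vehicle against transgenic), 92 (progesterone against vehicle) and 28 (progesterone against transgenic), and DESeq2 called 63, 72 and 46, against 0 in each by the edgeR test with the filter. Members with an unadjusted p under 0.05 numbered 7 for vehicle against transgenic, but 13 with no filter (5.75% of all genes), 0 by limma-voom (5.13%), 4 of the 33 then tested with only the 2 groups compared (5.71%) and 2 with the replicate block (5.03%). For progesterone against vehicle they numbered 2, but 13 with no filter (6.18%), 4 by DESeq2 (6.54%), 0 by limma-voom (4.69%) and 10 of 33 with only the 2 groups compared (7.71%).

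The labels do not tie libraries of the same number together, and the deviations of same-numbered libraries correlated at -0.125 (progesterone and vehicle), -0.174 (progesterone and transgenic) and 0.0804 (vehicle and transgenic). The replicate block called 0 genes and 0 members, as without it. With it, progesterone against transgenic turned to 0.09 for Tap1, 0.03 for Psmb8, 0.04 for Psmb9, -0.02 for Nlrc5 and 0.27 for H2-Q6. By limma-voom it turned to 0.11 for the class II median, 0.16 for Tap1 and H2-Ab1, 0.14 for H2-Aa, 0.26 for H2-Eb1, 0.12 for Ciita and 0.68 for H2-Q6.

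With 1 library left out at a time, these results ran over the ranges given. For vehicle against transgenic, they were 0 to 18 for members with an unadjusted p under 0.05, -0.67 to 0.03 for the median of the class I list, -2.99 to -0.13 for the median of the class II list, -1.14 to 0.35 for H2-K1, -0.55 to 0.23 for H2-D1 and -1.71 to 0.03 for Tap1. Further, for vehicle against transgenic, they were -2.99 to 0.14 for H2-Ab1 and -3.17 to 0.31 for H2-Eb1. For progesterone against vehicle, they were 0 to 10 for members with an unadjusted p under 0.05 and -0.12 to 0.86 for H2-D1. For progesterone against transgenic, they were 0 to 7 for members with an unadjusted p under 0.05, -0.37 to 0.48 for the median of the class I list, -1.30 to 1.24 for the median of the class II list, -0.54 to 1.13 for H2-K1, -0.33 to 0.68 for H2-D1 and -0.31 to 0.44 for B2m. Further, for progesterone against transgenic, they were -0.70 to 1.05 for Tap1, -0.53 to 0.48 for Psmb8, -0.75 to 0.79 for Psmb9, -0.83 to 0.81 for Nlrc5, -1.46 to 1.67 for H2-Aa and -1.41 to 1.72 for H2-Ab1. Further, for progesterone against transgenic, they were -1.50 to 1.98 for H2-Eb1, -1.51 to 1.24 for Cd74, -1.30 to 1.46 for Ciita, -1.74 to 0.88 for H2-M2 and -1.0 to 2.45 for H2-Q6.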

Other observations

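3 rows of the table with names starting H2- are annotated as polymorphic pseudogenes and belong to no comparison. H2-Q5, a neighbour of H2-Q6 and H2-Q7, held 41 and 17 counts in progesterone tumours, 11 and 2 counts in vehicle tumours and 6 and 62 counts in transgenic tumours. H2-Ea-ps, the alpha chain gene of I-E, held 15 and 4 counts in progesterone tumours, 1 and 2 counts in vehicle tumours and 5 and 17 counts in transgenic tumours. H2-Bl held 1 and 1, 0 and 0, and 1 and 5 counts in progesterone, vehicle and transgenic tumours. In all 3 rows transgenic library 2 held the most counts, and both progesterone libraries held more counts than vehicle library 2.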
